A study of Homo sapiens with 2 samples.

Results

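The let-7 family of the human miRNA array comprised 9 members of 2549 miRNAs, the let-7 5p strands let-7a to let-7g and let-7i together with miR-98-5p. They were found by name in the scanner output, and the rule uses no measured value. RNA was taken from exosomes, the small vesicles that cells release, of FaDu cells, an established cell line from a squamous carcinoma of the hypopharynx. Agilent one-colour miRNA arrays compared exosomal miRNAs of FaDu cells given an NC plasmid lentivirus (oe-NC, 1 array) with those of FaDu cells given a lentivirus for overexpression of HOTTIP (oe-HOTTIP, 1 array), a long noncoding RNA of the HOXA locus. The lentivirus is named by the treatment labels, whereas the study's methods describe overexpression plasmids transfected into FaDu cells with a Lipofectamine reagent. With 1 array per group no p-value was computed. The SDs given are over the spots of an array and cover technical error only.

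The labels of each array conflicted. Title and treatment named one group and the free-text description the opposite one, so each array is named here by the label in its title and treatment. In the authors' normalized table the difference between the columns had the opposite sign to the scanner output for 6 of the 8 detected members, and the same sign for let-7b-5p and let-7c-5p. For example, let-7a-5p stood at a log2 value of 7.01 in the column named for oe-NC and at 6.33 in the column named for oe-HOTTIP. With the columns exchanged, let-7f-5p had the highest log2 difference of the members (0.81, oe-HOTTIP minus oe-NC), as in the scanner output. let-7b-5p and let-7c-5p then had the opposite sign to it. The table comes from the same 2 arrays and is no separate measurement. All directions below follow title and treatment, and would turn round if these labels were the wrong ones.

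let-7 was first found in the nematode as a regulator of the timing of larval development. Its mature sequence is nearly unchanged across animals, and in mammals the family is a marker of differentiated cells and restrains growth-promoting mRNAs such as those of RAS genes and HMGA2. LIN28 proteins block the maturation of many let-7 precursors. A miRNA finds its targets mainly through its seed, bases 2 to 8, so all members are expected to share many targets, and they differ outside the seed.

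The mature sequences, from RefSeq (GRCh38.p14), are shown because the members are told apart on the array only by the bases outside the shared seed. The seed is in capitals.

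hsa-let-7a-5p: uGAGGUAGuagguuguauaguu
hsa-let-7b-5p: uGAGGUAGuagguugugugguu
hsa-let-7c-5p: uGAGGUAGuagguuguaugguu
hsa-let-7d-5p: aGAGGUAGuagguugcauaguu
hsa-let-7e-5p: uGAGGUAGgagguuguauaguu
hsa-let-7f-5p: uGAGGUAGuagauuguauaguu
hsa-let-7g-5p: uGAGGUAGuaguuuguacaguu
hsa-let-7i-5p: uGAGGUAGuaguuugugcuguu
hsa-miR-98-5p: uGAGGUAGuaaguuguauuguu

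All 9 sequences had 22 bases, and against let-7a-5p the others differed at 1 to 4 positions, counted from 1 at the 5′ end. let-7c-5p (A19G), let-7e-5p (U9G) and let-7f-5p (G12A) each differed at 1 position. let-7b-5p (A17G and A19G), let-7d-5p (U1A and U16C), let-7g-5p (G12U and U18C) and miR-98-5p (G11A and A19U) differed at 2, and let-7i-5p (G12U, A17G, U18C and A19U) at 4. How far a probe also reads a neighbouring member was not tested. The array held 2 further miRNAs with the same seed, miR-4458 and miR-4500, and neither was detected on either array.

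In GRCh38.p14 the strand of let-7a-5p is encoded 3 times, at chr9:94175962-94175983 on the plus strand within the span of MIRLET7A1HG, at chr11:122146568-122146589 on the minus strand within MIR100HG, and at chr22:46112752-46112773 on the plus strand within MIRLET7BHG. let-7f-5p is encoded at chr9:94176353-94176374 (plus strand, MIRLET7A1HG) and at chrX:53557246-53557267 (minus strand, within the protein-coding gene HUWE1). The array reads the mature strand and cannot assign it to one of these loci. let-7b-5p lies at chr22:46113691-46113712 in MIRLET7BHG, and 863 bases separate its hairpin from that of the let-7a gene there. let-7d-5p lies at chr9:94178841-94178862 in the same lncRNA gene as the chromosome 9 copies of let-7a and let-7f, and miR-98-5p lies at chrX:53556299-53556320 beside the X-linked let-7f gene. The remaining 4 members each have 1 locus, let-7c-5p at chr21:16539838-16539859 (MIR99AHG), let-7e-5p at chr19:51692793-51692814 (SPACA6), let-7g-5p at chr3:52268336-52268357 (minus strand, WDR82) and let-7i-5p at chr12:62603691-62603712 (MIRLET7IHG). Whether these positions are exonic or intronic was not analysed here.

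Each member had 2 probes with 10 spots each, or 180 spots per array, of which 2 on the oe-NC-labelled array and 6 on the oe-HOTTIP-labelled array carried an outlier flag and were left out. A signal is the background-subtracted intensity averaged over spots and then over both probes, before scaling between arrays. The scanner software marked 328 miRNAs as detected on the oe-NC-labelled array, 390 on the oe-HOTTIP-labelled array and 261 on both. Of the 9 members, 8 were detected on both arrays and miR-98-5p on neither.

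let-7b-5p was the brightest member, with a signal of 666.6 ± 102.7 (SD, n = 20 spots) on the oe-NC-labelled array and 871.1 ± 106.9 (n = 20) on the oe-HOTTIP-labelled array. These signals ranked 16 and 13 among all 2549 miRNAs. let-7a-5p, the strand with the most genes, followed with 212.1 ± 40.4 (n = 20) and 528.3 ± 70.8 (n = 19), at ranks 32 and 21. Both stood among the brightest miRNAs of each array, and let-7b-5p lay beyond the combined spot SD of let-7a-5p on both.

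The middle of the family was formed by 4 members. let-7f-5p had a signal of 95.2 ± 32.1 (n = 20) on the oe-NC-labelled array and of 285.9 ± 43.4 (n = 19) on the oe-HOTTIP-labelled array. let-7i-5p had 90.96 ± 24.3 (n = 20) and 131.4 ± 12.1 (n = 19), and let-7c-5p had 59.6 ± 32.6 (n = 19) and 100.5 ± 37.4 (n = 20). On the oe-NC-labelled array the signals of let-7f-5p and let-7i-5p could not be separated beyond their spot SD, whereas on the other array let-7f-5p stood clear of let-7i-5p. let-7g-5p had 34.3 ± 13.7 (n = 20) and 82.9 ± 14.7 (n = 19), within the spot SD of let-7c-5p on both arrays.

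The dim end held let-7d-5p, with 29.8 ± 5.65 (n = 19) on the oe-NC-labelled array and 41.2 ± 11.1 (n = 18) on the oe-HOTTIP-labelled array, and let-7e-5p, with 15.8 ± 3.15 (n = 20) and 31.9 ± 5.18 (n = 20). Their gap was beyond the combined spot SD on the first array and within it on the second. miR-98-5p had a signal of 2.10 ± 2.31 and 3.63 ± 2.35 (n = 20 each), no higher than 1 SD above the mean of the negative control spots, which was 3.87 ± 2.37 (n = 976) and 3.45 ± 2.21 (n = 975). Its brighter probe had 2.59 ± 2.16 and 6.43 ± 2.37 (n = 10 each), with 0 spots well above background on either array, and the miRNA was given no fold.

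**Figure D1:**
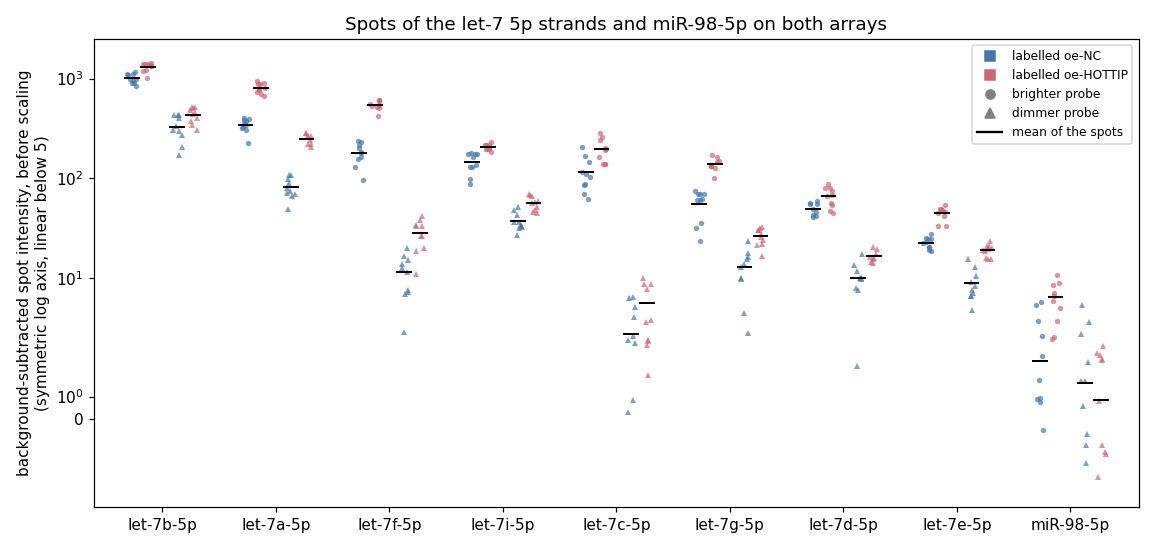
Background-subtracted intensity of every spot (symmetric log axis, before scaling) of the 9 members on the oe-NC-labelled (blue) and oe-HOTTIP-labelled (red) arrays, with circles for the brighter and triangles for the dimmer probe of each miRNA and black lines for the means. The members fall from let-7b-5p, at 666.6 and 871.1 averaged over its probes, to miR-98-5p at 2.10 and 3.63, and the dimmer probe of let-7c-5p lies near the background.

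The order of signal was the same on both arrays, from let-7b-5p through let-7a-5p, let-7f-5p, let-7i-5p, let-7c-5p, let-7g-5p and let-7d-5p to let-7e-5p, and all 28 pairs of detected members kept their order. Of the neighbours in this order, 4 pairs on the oe-NC-labelled array lay within their combined spot SD (let-7f-5p and let-7i-5p, let-7i-5p and let-7c-5p, let-7c-5p and let-7g-5p, let-7g-5p and let-7d-5p). On the oe-HOTTIP-labelled array this held for 3 pairs (let-7i-5p and let-7c-5p, let-7c-5p and let-7g-5p, let-7d-5p and let-7e-5p). A signal also carries the labelling and hybridization of its probes, so this is an order of signal and not of molecules.

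Although the order held, the weights within it differed. let-7b-5p made up 55.3% of the summed signal of the members on the oe-NC-labelled array and 41.9% on the oe-HOTTIP-labelled array. let-7a-5p made up 17.6% and 25.4%, and let-7f-5p 7.89% and 13.8%. The ratio of let-7f-5p to let-7b-5p, the members with the highest and lowest difference between the arrays and paired for that after the values were seen, went from 0.143 to 0.328, a log2 difference of 1.20 with a spread over spots of 0.60 (SE 0.14), and dividing an array by any single factor leaves this ratio as it is. It came to 1.22 from the brighter probes alone and to 0.89 from the dimmer ones. Quantile normalization, which does not use a single factor, gave 0.43, and the authors' table gave -0.72 as its columns were named and 0.72 with the columns exchanged.

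For the comparison of the arrays signals were scaled to the 90th percentile of the 261 miRNAs that both arrays detected (279.9 and 439.4), which took 0.65 off each log2 difference. Differences are given as labelled oe-HOTTIP minus labelled oe-NC on the log2 scale, and a fold of 2 was the fold threshold of the study's methods. Those methods also set a threshold on a corrected p-value, which 1 array per group cannot give here. None of the 8 detected members reached 2-fold, against 102 of the 261 miRNAs (39.1%). The median difference of the 8 members was 0.24, beside 0.024 over all 261 miRNAs (quartiles -0.66 and 0.73), and their median absolute difference was 0.32 beside 0.70.

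let-7f-5p, let-7a-5p and let-7g-5p had the highest differences. let-7f-5p was higher on the oe-HOTTIP-labelled array by 0.94 with a spread over spots of 0.53 (1.91-fold), and let-7a-5p by 0.67 with a spread of 0.34. These 2 members exceeded their spread over spots, and how many other miRNAs did so was not counted. let-7g-5p differed by 0.62, just under its spread of 0.63, and let-7e-5p by 0.37, also just under its spread of 0.37. Across the alternative scalings, summaries and background corrections of the scanner output and the table with exchanged columns, let-7f-5p lay between 0.62 and 1.59 and let-7a-5p between 0.50 and 1.32, and both signs turned only in the table as its columns were named. The sign of let-7g-5p also turned in that table alone, and that of let-7e-5p there and with normexp at an offset of 50, a model-based background correction (-0.27).

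The other 4 members lay near 0. let-7c-5p differed by 0.10 with a spread of 0.95, let-7i-5p by -0.12 with 0.41, let-7d-5p by -0.18 with 0.48, and let-7b-5p by -0.26 with 0.28. All 4 stayed within their spread over spots, and each sign turned under other scalings, with let-7b-5p for example at 0.40 after quantile normalization. By the narrower standard error, 5 members (let-7a-5p, let-7b-5p, let-7e-5p, let-7f-5p and let-7g-5p) differed from 0 by more than 2 SE. How many of all miRNAs passed 2 SE was not counted, so no share over the array stands beside this count. An SE over spots describes these arrays and not the variation between cultures.

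**Figure D2:**
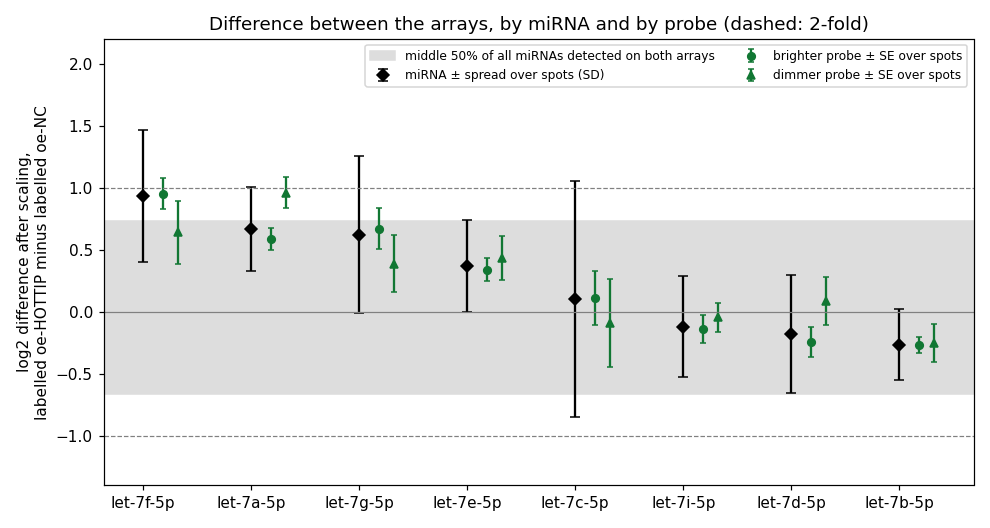
Log2 difference after scaling (labelled oe-HOTTIP minus labelled oe-NC) of the 8 detected members, with diamonds and bars for the miRNA ± its spread over spots, green points for each probe ± SE, a grey band for the middle 50% of all miRNAs detected on both arrays and dashed lines at 2-fold. The members run from 0.94 for let-7f-5p to -0.26 for let-7b-5p and none reaches the dashed lines.

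**Figure D3:**
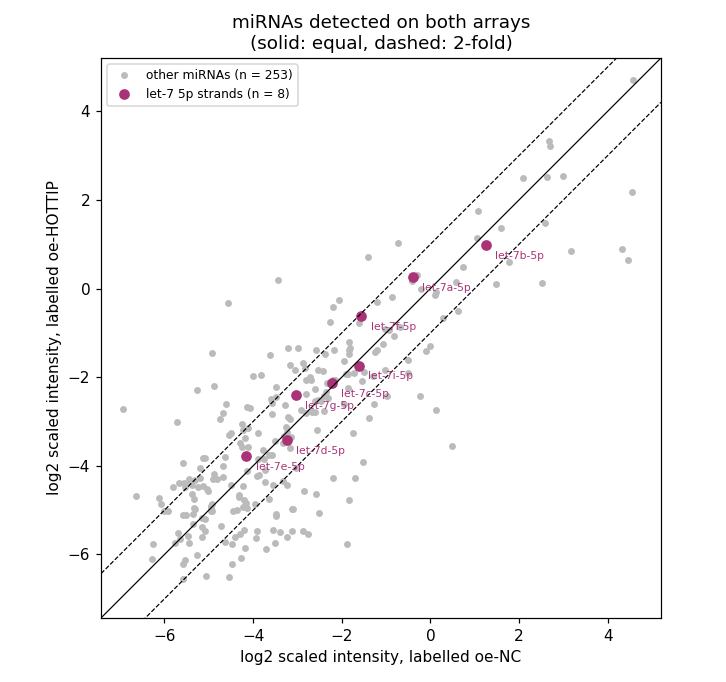
Scaled log2 intensity of the 261 miRNAs detected on both arrays, labelled oe-NC on the x axis and labelled oe-HOTTIP on the y axis, with the 8 let-7 strands in purple, the line of equality solid and the 2-fold lines dashed. All 8 strands lie between the dashed lines, while 102 of the 261 miRNAs lie on or beyond them.

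Summed over all 9 members, the signal was 1206 on the oe-NC-labelled array and 2077 on the oe-HOTTIP-labelled array. After scaling this was a log2 difference of 0.13, and without let-7b-5p, which held the largest share, it was 0.51. The members took 2.06% and 3.25% of the summed positive signal of all miRNAs.

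Both probes of a member were also compared. The differences of all 8 pairs of probes lay within their combined spread over spots, those of 7 pairs lay within 2 SE, and 6 pairs had the same sign. The brighter and dimmer probe gave 0.95 and 0.64 for let-7f-5p, 0.67 and 0.39 for let-7g-5p, 0.34 and 0.44 for let-7e-5p, -0.14 and -0.05 for let-7i-5p, and -0.27 and -0.25 for let-7b-5p. For let-7a-5p the probes differed by more than 2 SE, with 0.59 from the brighter and 0.96 from the dimmer, both in the same direction. None of the 16 probes of detected members reached 2-fold.

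The spots of the arrays were separated on few probes. On the brighter probe of let-7a-5p the spots ran from 225.2 to 406.4 on the oe-NC-labelled array and from 669.4 to 944.0 on the oe-HOTTIP-labelled array, and on its dimmer probe from 48.7 to 109.0 and from 207.8 to 283.5. After scaling these ranges did not overlap on either probe, but on the dimmer probe 1 spot of 129.4 on the oe-HOTTIP-labelled array had been left out as an outlier, and with it the ranges overlapped. The brighter probe of let-7f-5p had spots from 95.1 to 234.9 and from 416.4 to 615.2, which did not overlap after scaling with or without outliers. The scaled spot ranges of the other 13 probes of detected members overlapped. How often probes of other miRNAs had separate ranges was not counted, so no share over the array stands beside these probes.

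For let-7c-5p and let-7d-5p the probes disagreed in sign. let-7c-5p rested on 1 probe, with 115.4 ± 44.8 and 195.4 ± 52.8 (SD, n = 10 spots each) and a difference of 0.11. Its dimmer probe had 3.81 ± 2.14 (n = 9) and 5.60 ± 2.82 (n = 10), with 0 spots well above background on either array. let-7d-5p had -0.24 from its brighter probe, at 49.5 ± 7.08 (n = 9) and 65.6 ± 14.7 (n = 10), and 0.09 from its dimmer probe, at 10.06 ± 3.96 (n = 10) and 16.8 ± 2.27 (n = 8).

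Within the family the differences fell with the number of G and C bases in the mature sequence, a pattern chosen after the values were seen and given as a description. let-7f-5p has 7 G or C bases, let-7a-5p and let-7g-5p have 8, let-7c-5p, let-7d-5p, let-7e-5p and let-7i-5p have 9, and let-7b-5p has 10. Across these 8 miRNAs, which share the 2 arrays, Spearman's rho was -0.93 and Pearson's r -0.91. The brighter probes gave a rho of -0.93 and the dimmer ones -0.82. Across the 218 miRNAs detected on both arrays with a sequence in the RefSeq table, rho was 0.015, and across 34 other miRNAs within the members' range of 31.8% to 45.5% G and C it was -0.03. The latter 34 had a median difference of 0.02, and 4 of them (11.8%) reached 2-fold. The part of base composition in the differences was not tested.

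**Figure D4:**
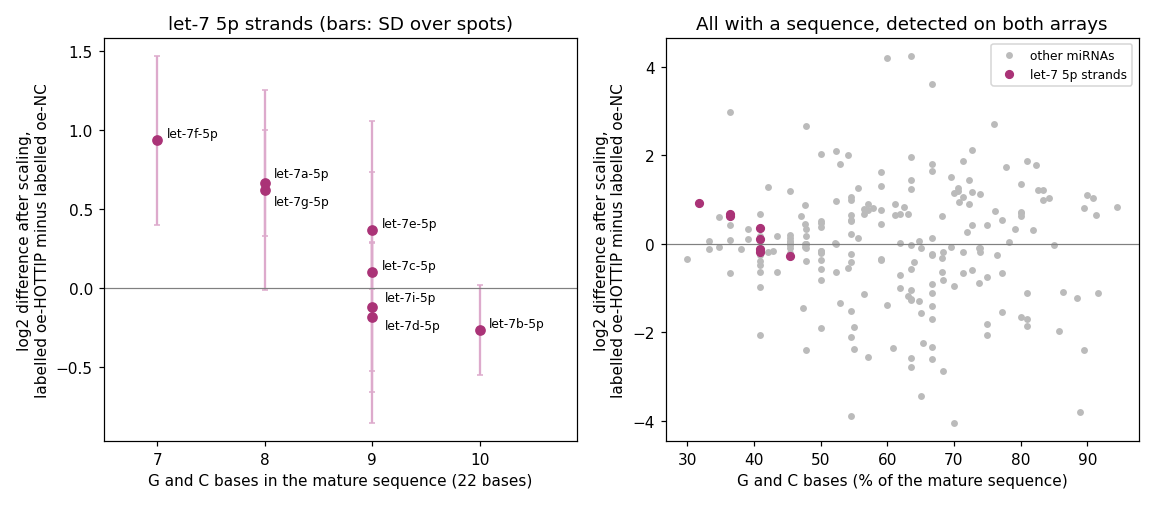
Log2 difference after scaling against the G and C bases of the mature sequence, on the left for the 8 detected members (bars, SD over spots) and on the right, as a percentage, for the 218 miRNAs detected on both arrays with a sequence. The members fall from let-7f-5p with 7 bases to let-7b-5p with 10 (rho -0.93), and the 218 miRNAs show no such slope (rho 0.015).

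The opposite arms, made from the other side of the same hairpins, are usually the less stable strands. Of 11 such arms 10 were on the array, and 3 of these were detected on the oe-NC-labelled array and 0 on the oe-HOTTIP-labelled array. Over all 2549 miRNAs 328 were detected on the oe-NC-labelled array, 390 on the oe-HOTTIP-labelled array and 261 on both. Other miRNAs were thus also detected on 1 array alone, but over the whole array more were detected on the oe-HOTTIP-labelled array, unlike these arms. Whether the arms were detected on 1 array alone more often than other miRNAs was not tested. Before scaling, let-7b-3p had a signal of 7.42 ± 2.72 and 4.21 ± 1.72, let-7f-1-3p of 7.53 ± 1.95 and 4.78 ± 1.53, and miR-98-3p of 8.35 ± 2.26 and 3.80 ± 2.17. After scaling they were 2.76-fold, 2.47-fold and 3.45-fold lower on the oe-HOTTIP-labelled array, and without scaling 1.76-fold, 1.58-fold and 2.19-fold lower. Each fold is the plain ratio of the arm's mean signals, with its own undetected signal on the oe-HOTTIP-labelled array. All 3 signals were near the negative controls, whose mean before scaling was 3.87 on the oe-NC-labelled array and 3.45 on the oe-HOTTIP-labelled array. miR-98-3p had 1 flagged spot of 2250 on the oe-NC-labelled array beside 19 spots between 3.37 and 12.4.

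Several let-7 genes are transcribed with miR-99, miR-100 and miR-125 genes. Of these 5 partners 2 were detected on both arrays, and neither reached 2-fold, beside 102 of all 261 miRNAs (39.1%). miR-100-5p, a neighbour of the chromosome 11 let-7a gene, had a signal of 23.5 ± 2.49 and 32.4 ± 4.42 and a scaled difference of -0.19. miR-125b-5p had 12.7 ± 3.28 and 13.5 ± 2.26 and a scaled difference of -0.56. Before scaling both were higher on the oe-HOTTIP-labelled array. miR-125a-5p, from the cluster of let-7e, was detected on the oe-HOTTIP-labelled array alone, and miR-99a-5p and miR-99b-5p on neither.

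The identity of the samples was checked with marker miRNAs. Of 6 epithelial and squamous markers 5 were detected on both arrays, led by miR-205-5p at 415.1 and 489.9, with a summed signal over the list of 527.3 and 632.0 before scaling, and miR-203a-3p was detected on neither. Before scaling none of these 5 was lower on the oe-HOTTIP-labelled array, with miR-200c-3p for example at 47.8 and 48.2. After scaling, which took 0.65 off each log2 difference, 4 of these 5 were lower there, with a median of -0.62. Over all 261 miRNAs 51.7% lay above 0. None of the 5 reached 2-fold, beside 102 of all 261 miRNAs (39.1%). Of 6 blood markers 5 were also detected on both arrays, with summed signals of 2281 and 2625 before scaling. Most of that sum was the erythroid miR-451a at 2233 and 2552, at ranks 6 and 4 of all miRNAs, and miR-142-3p was detected on neither array. After scaling, miR-451a differed by -0.46, and the 5 blood markers had a median of -0.33. Of these 5, 2 passed 2-fold in opposite directions (miR-486-5p at -1.75 and miR-150-5p at 1.38), beside 102 of all 261 miRNAs (39.1%). Before scaling miR-486-5p had 12.6 and 5.91 and miR-150-5p 4.04 and 16.6, so the lower signal of each was near the negative controls. The liver miRNA miR-122-5p had 8.99 and 14.8 before scaling. Of 3 muscle miRNAs, miR-133a-3p was detected on the oe-NC-labelled array alone (8.94 against 0.17), miR-206 on the other alone (14.4 against -1.11), and miR-1-3p on neither. The part of such RNA in the let-7 signals was not tested.

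**Figure D5:**
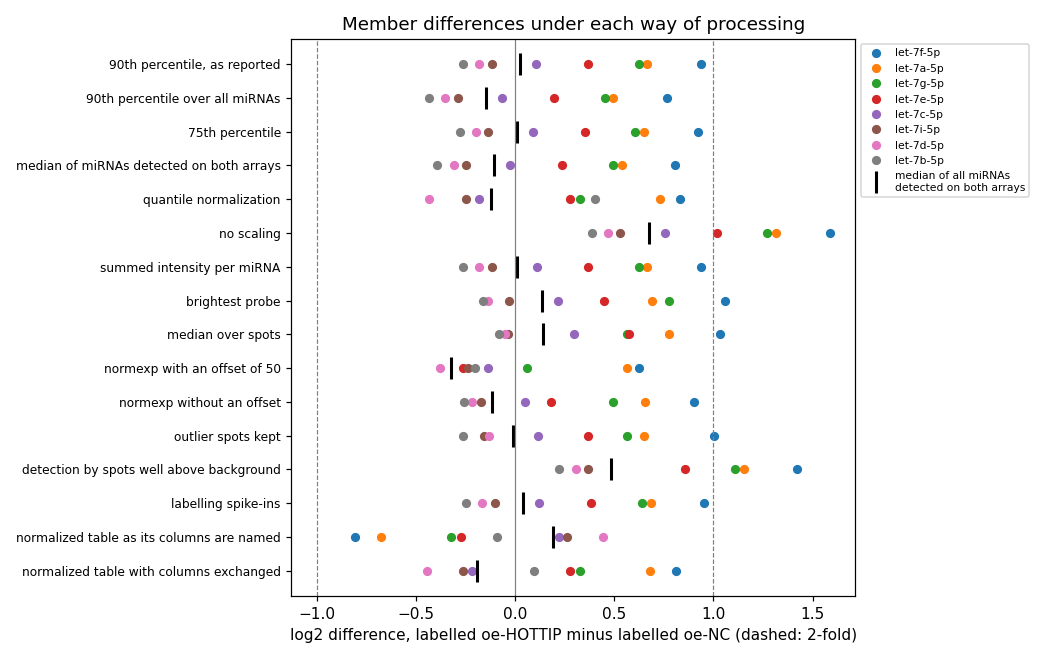
Log2 difference (labelled oe-HOTTIP minus labelled oe-NC) of each detected member under each way of processing, 1 row per setting, with black ticks for the median of all miRNAs detected on both arrays and dashed lines at 2-fold. let-7f-5p is the highest member in each row except that of the normalized table with its columns as named, where it is the lowest at -0.81, and members pass 2-fold only to the right.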

How the data were processed

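For both arrays the authors deposited the output of the scanner, with a background-subtracted intensity per spot and flags (detected, outlier, well above background), and a table of normalized log2 values, made per the methods in GeneSpring with scaling to the 90th percentile. The scanner output names Agilent Feature Extraction 11.5.1.1 and the submitters' processing notes version 10.10. For each array 200 ng of RNA were labelled. Outlier-flagged and control spots were left out, spots and then probes were averaged, arrays were scaled by the 90th percentile of the 261 miRNAs that both detected, and log2 was taken. SDs over spots were pooled within probes, and the spread of a log2 difference is the square root of the sum of both squared relative SDs. No test was run, because precision is limited by 1 array per group. Members and lists were chosen with earlier results of these data known. All 9 members are named, and other miRNAs only from lists of opposite arms, cluster partners, the same seed and markers. The alternatives were 12 set at the start and 3 added after the data were seen. The calculation was run on simulated arrays with planted changes larger than any member difference. That checks the code and not the precision of small differences. RefSeq tables gave sequences and loci. Python 3.11.15, numpy 2.4.6, pandas 2.3.3, scipy 1.17.1, matplotlib 3.10.9, R 4.3.3 and limma 3.58.1 were used.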

Additional observations from a re-analysis of the deposited data

How the results depend on the processing

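No member reached 2-fold under 90th percentile scaling over all miRNAs, 75th percentile, median or quantile scaling, the summed intensity, normexp with an offset of 50, or the normalized table as named. The same held for the 3 settings added after the data were seen (normexp without an offset, labelling spike-ins, the table with exchanged columns). Over all miRNAs the share at 2-fold in these settings ran from 12.6% (normexp with the offset of 50) to 40.2% (summed intensity). Without scaling 4 of 8 members passed (let-7a-5p, let-7e-5p, let-7f-5p and let-7g-5p), beside 131 of all 261 miRNAs (50.2%). The member median was then 0.89, while the median of all miRNAs was 0.67. With detection by over 50% of spots well above background 3 of 7 passed (let-7a-5p, let-7f-5p and let-7g-5p), beside 71 of all 156 miRNAs (45.5%). The member median was then 0.85, beside 0.48 over all, and let-7c-5p was no longer detected. let-7f-5p alone passed with the brightest probe (1.06), the median over spots (1.03) and outlier spots kept (1.00), so 1 member passed in each. Over all 261 miRNAs 41.4%, 40.6% and 39.8% passed in these settings. The member median was -0.17 with the offset of 50 and -0.18 in the table as named. Of 119 member values under 15 alternatives 20 moved by more than the spread over spots. The order of signal held for all 28 pairs in every setting that was checked for it. The other detection rule leaves the signals as they are, and exchanging the table's columns only renames them. Neither was thus a separate check of the order. The rho with G and C bases was -0.54 after quantile normalization and 0.74 in the table as named. No paired analysis was possible because there was 1 array in each group, and for the same reason no replicate could be left out. Signal over background limits the dimmer probes of let-7c-5p, let-7d-5p and let-7e-5p, which had 0, 3 and 2 spots well above background on the oe-NC-labelled array. The dimmer probes of let-7f-5p and let-7g-5p had 6 of 10 such spots each there.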
